A study of Mus musculus with 2 samples.

Results

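The genes described here make the licensing machinery of DNA replication, the proteins that prepare replication origins and the helicase that unwinds them. They are the 10 rows of the gene table named MCM2, MCM3, MCM4, MCM5, MCM6, MCM7, MCM10, CDT1, CDC6 and GMNN, out of 34376 gene rows, together with the 25 promoter rows and 38 transcript rows that carry the same names. The names were taken from the function of the genes, with earlier results of these data known, and each matched 1 gene row. Poly(A) RNA came from E14 mouse embryonic stem (ES) cells, a line of strain 129P2/OlaHsd at passage 29. The undifferentiated group was 1 library of cells kept on feeder fibroblasts treated with mitomycin C, with 15% serum and leukaemia inhibitory factor. The differentiated group was 1 library of the mixed cell population present after 4.5 days without feeders, in medium with 10% serum to which retinoic acid had been added at 0.1 µM. No leukaemia inhibitory factor was listed for this group. Feeder cells were estimated below 0.25% after adsorption, and dead cells at 2% before and 8% after differentiation, per the labels' protocols.

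Licensing is the step that limits replication to 1 round per cell cycle. In G1 the origin recognition complex, Cdc6 and Cdt1 load the ring of Mcm2 to Mcm7 onto origin DNA in an inactive form, and in S phase the ring is activated as the replicative helicase together with Cdc45 and the GINS complex. Geminin, the product of Gmnn, then binds Cdt1 and blocks further loading until the end of mitosis, and transcription of most of these genes is known to follow the E2F factors. Mouse ES cells cycle rapidly with a short G1 phase, and the comparison asks how the level of this machinery differs when they leave that state.

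Each library was read on 2 sequencing lanes, which hold the same library, so that a spread between lanes shows sequencing and read assignment and not biological variation. Since each condition is a single library, differences between them carry no test and no replicate check. The lanes held about 37800000 and 36100000 reads in the undifferentiated and about 33000000 and 32000000 in the differentiated library, as inferred from the value of 1 read in single-exon models. Values are RPKM, read counts scaled by the length of the model and by the reads of the lane. For Mcm2, a single model of 3371 exonic bases, this implies read counts of 23277 and 21288 before and of 8978 and 9323 after differentiation. Among the 10 genes the lanes differed by 0.0459% to 10.6% in the undifferentiated and by 0.403% to 14.2% in the differentiated library. The sample titles held against ES cell markers: all 8, Pou5f1 among them (692.5 and 29.5 RPKM), were at least 2-fold lower after differentiation. The titles name no endoderm, but the 8 extraembryonic endoderm markers, Gata6 among them (1.01 and 52.1 RPKM), were all at least 2-fold higher. So were 5 of 8 fibroblast markers and 1 of 6 neural progenitor markers.

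The 10 licensing and helicase genes were lower in the differentiated library with 1 exception, Cdc6. Ratios are log2 of (differentiated RPKM + 1) over (undifferentiated RPKM + 1). On this scale 7 of the 10 genes were at least 2-fold lower: Mcm2, Mcm3, Mcm5, Mcm6, Mcm7, Mcm10 and Cdt1. Mcm4, Gmnn and Cdc6 lay within 2-fold, and none was 2-fold higher. All 10 passed a floor of 1 RPKM in at least 1 of the libraries; of the 17899 genes that did so, 8.48% were lower by 2-fold or more and 19.1% were higher by as much. The median ratio of the 10 genes was -1.17, beside 0.12 over all these genes. In 9 of the 10 genes both undifferentiated lanes lay above both differentiated lanes, as did 37.1% of all genes at the floor, and the lanes overlapped in Cdc6. In bulk RNA, fewer cells that express a gene and less RNA per cell cannot be told apart.

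**Figure D1:**
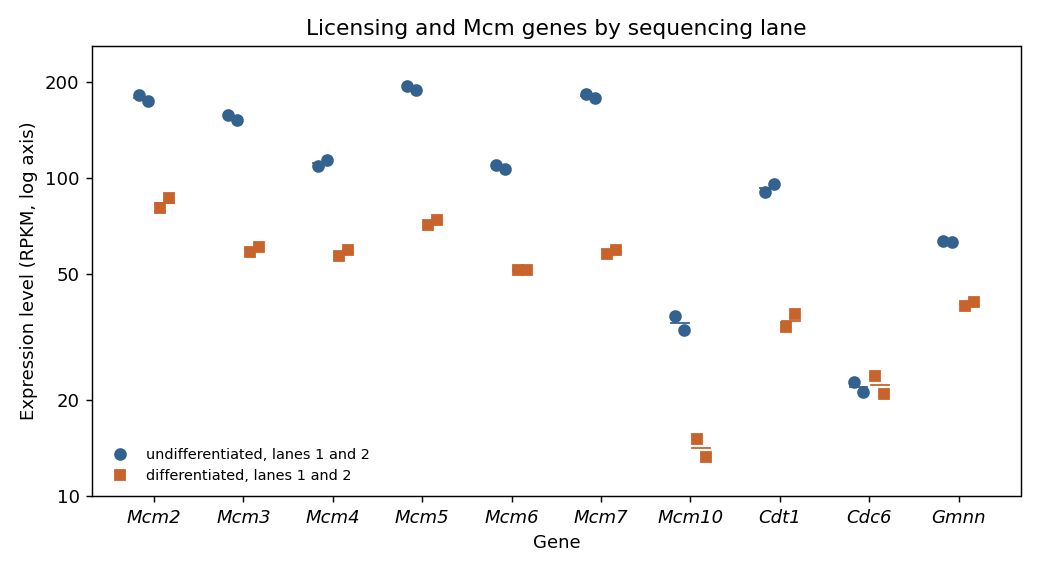
Expression level in RPKM on a log axis for each of the 10 genes, with 1 point per sequencing lane (blue circles undifferentiated, orange squares differentiated) and a line at the mean of both lanes. The differentiated lanes lie below the undifferentiated lanes in 9 genes and on either side of them in Cdc6.

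The 6 genes of the helicase ring were among the more highly expressed genes before differentiation, between 108 and 192 RPKM, and between 51.3 and 83.5 RPKM after it. Mcm7 (mm9 chromosome 5, 138605811 to 138613650, minus strand), whose ratio was the lowest of the 10, stood at 184 and 179 RPKM in the undifferentiated lanes and at 57.6 and 59.6 in the differentiated lanes. Its differentiated mean was 32.3% of the undifferentiated mean, a log2 ratio of -1.61 (-1.66 to -1.57 over the pairings of lanes) at percentile 3.02 of all genes at the floor. Mcm5 (chromosome 8, 77633427 to 77652338, plus strand), which with Mcm2 forms the gate through which the ring opens, had the highest level of the 10 before differentiation. It stood at 194 and 189 RPKM in the undifferentiated and at 71.2 and 73.8 in the differentiated lanes, a log2 ratio of -1.39 (percentile 4.27).

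Mcm3 (chromosome 1, 20793055 to 20810359, minus strand), another ring subunit, stood at 157 and 152 RPKM before and at 58.5 and 60.8 after differentiation. Its log2 ratio of -1.36 was close to those of Mcm5 and Cdt1, and the ranges over lane pairings overlapped. Mcm2 (chromosome 6, 88833468 to 88848774, minus strand), whose N-terminal tail binds histones, stood at 183 and 175 RPKM in the undifferentiated and at 80.6 and 86.3 in the differentiated lanes. Its log2 ratio of -1.09 came from -1.17 in lane 1 and -1.01 in lane 2, so that it passed 2-fold in both but narrowly in the second.

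Mcm6 and Mcm4 had the smallest differences of the ring genes. Mcm6 (chromosome 1, 130228168 to 130256233, minus strand) stood at 110 and 107 RPKM in the undifferentiated and at 51.2 and 51.5 in the differentiated lanes, a log2 ratio of -1.06. Mcm4 (chromosome 16, 15623990 to 15637493, minus strand), a subunit of the catalytic core, stood at 109 and 114 RPKM before and at 57.0 and 59.4 after differentiation, a log2 ratio of -0.93 that lay between -0.98 and -0.87 over the lane pairings. No lane of either gene in 1 library reached the lanes of the other library. The threshold separates values that are close to each other: Mcm6 lay just inside 2-fold lower and Mcm4 just outside.

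These calls depended on the scaling of the libraries. Of all genes that differed by 2-fold in the deposited values, 69.3% had the higher level after differentiation. Centring on the median gene made this share 59.4%, a trimmed mean of ratios 58.1%, the upper quartile 61.0%, and equal column sums 80.5%, with the median of all genes then at 0.33. Mcm4 was lower by more than 2-fold under the first 3 scalings (-1.05, -1.09 and -1.05), giving 8 lower genes beside a background of up to 11.4%. With equal column sums Mcm2 (-0.85) and Mcm6 (-0.82) came within 2-fold, giving 5 lower genes beside a background of 5.99%. All members but Cdc6 kept a ratio below 0 under every scaling.

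**Figure D2:**
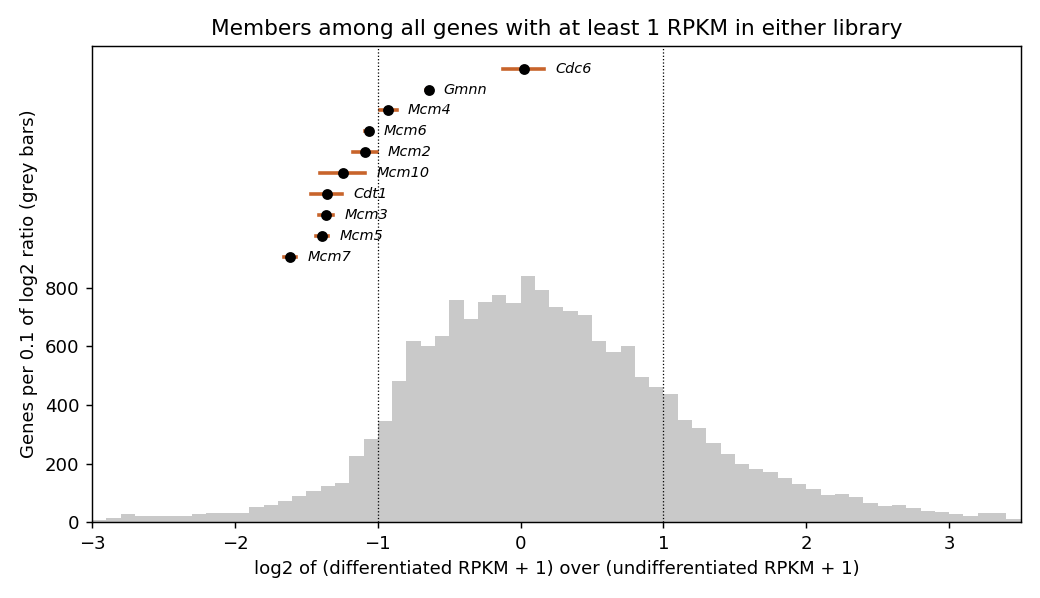
Distribution of log2 ratios of all 17899 genes at the floor (grey bars, genes per 0.1 of log2 ratio, shown from -3 to 3.5) with the 10 genes above it; black points are the ratios of the library means, orange lines the range over the 4 pairings of lanes, and dotted lines mark 2-fold. Mcm7 lies farthest to the left at -1.61, and Cdc6 lies at 0.02.

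The 6 ring subunits are present in 1 copy each in the complex, and their transcripts stood within 1.77-fold of each other before differentiation and within 1.63-fold after it. The summed level of Mcm2 to Mcm7 was 937.5 and 915.5 RPKM before and 376.1 and 391.3 after differentiation. As a share of the whole column this was 0.0936% before and 0.0459% after differentiation. Within the sum, Mcm7 made up 19.6% in both lanes before differentiation and 15.3% and 15.2% after it. Mcm4 made up 11.7% and 12.4% before and 15.2% in both lanes after, and Mcm2 19.5% and 19.1% before and 21.4% and 22.1% after. The shares of Mcm3, Mcm5 and Mcm6 differed by at most 2 percentage points between the library means. Mcm5 was the most abundant of the 6 before and Mcm2 after differentiation, while Mcm6 had the lowest mean in both libraries.

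**Figure D3:**
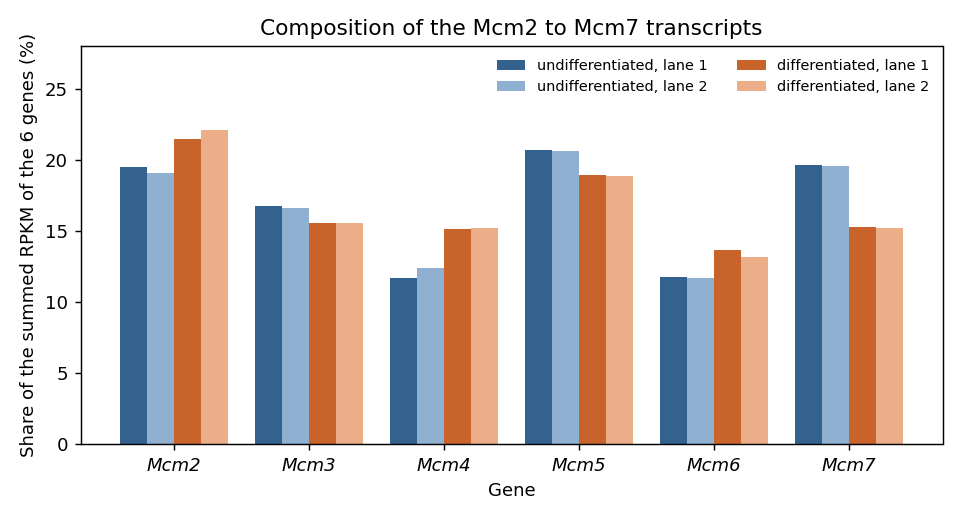
Share of each gene in the summed RPKM of Mcm2 to Mcm7, in percent, with 1 bar per lane (blue undifferentiated, orange differentiated; the lighter bar is lane 2). Mcm7 has the larger loss of share, from 19.6% to about 15.3%, and Mcm2, Mcm4 and Mcm6 have higher shares after differentiation.

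Mcm10, which is not a ring subunit but helps to activate the helicase and to bring DNA polymerase alpha to origins, was expressed at a lower level and shifted with the ring genes. Mcm10 (chromosome 2, 4910760 to 4933837, minus strand) stood at 36.8 and 33.3 RPKM in the undifferentiated and at 15.2 and 13.3 in the differentiated lanes, a log2 ratio of -1.24. Its level was 0.210 times the median of the 6 ring genes before and 0.241 times after differentiation, and the lanes of the libraries did not overlap in this ratio but came close (0.204 and 0.217 before, 0.221 and 0.261 after).

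The loading factor Cdt1 and its inhibitor were both lower, but by different amounts. Cdt1 (chromosome 8, 125091915 to 125097030, plus strand), which carries the ring to the origin, stood at 90.3 and 95.7 RPKM before and at 33.9 and 37.4 after differentiation, a log2 ratio of -1.36. Gmnn (chromosome 13, 24843714 to 24853806, minus strand), which encodes the Cdt1 inhibitor geminin, stood at 63.2 and 63.1 RPKM before and at 39.5 and 40.7 after, a log2 ratio of -0.64. Its lanes did not overlap between libraries, and its differentiated mean was 63.5% of the undifferentiated mean, beside 38.3% for Cdt1. On the per-length scale Cdt1 stood at 1.43 and 1.52 times Gmnn in the undifferentiated lanes and at 0.859 and 0.919 times in the differentiated lanes. The order of these 2 rows was thus reversed in each lane. A second row of Cdt1, MMCDT1, was left out of these ratios and stood at 3.37 and 3.25 RPKM in the differentiated lanes. Counting it would bring Cdt1 close to Gmnn there, and nearly level with it in lane 2, so the size of the reversal depends on how reads were split.

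Cdc6, the ATPase that joins the origin recognition complex to start loading, did not share the lower level. Cdc6 (chromosome 11, 98769115 to 98785256, plus strand) stood at 22.9 and 21.2 RPKM in the undifferentiated and at 23.9 and 20.9 in the differentiated lanes. Its log2 ratio was 0.02, with -0.12 and 0.16 as the extremes over the lane pairings, took values over the scalings from -0.14 (trimmed mean) to 0.26 (equal column sums), and lay at percentile 45.3 of all genes. The level of Cdc6 relative to Cdt1 was 0.253 and 0.222 before and 0.705 and 0.559 after differentiation. Before differentiation Cdc6 had the lowest level of the 10 genes; after it Mcm10 did.

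The promoters of these genes are shown because E2F binding motifs are what many of them are known for. Of the 10 genes, 8 matched the RefSeq promoter table of build GRCm38.p6, with 9 windows of 250 bases before to 50 bases after an annotated start; Mcm4 and Gmnn did not match. The 8-letter motifs TTTGGCGC, TTTCCCGC, TTTCGCGC and TTTGCCGC were searched on both strands, after the windows had been seen. A match was present in 6 of the 9 windows (66.7%), those of Mcm3, Mcm5, Mcm6, Mcm7, Cdt1 and Cdc6, and in 2.26% of all 32851 windows of that length. The window of Mcm6, a gene that was lower, and that of Cdc6, the gene that was not, are given for the 250 bases before the start, the others around matches. Capitals mark matches on either strand.
Mcm6, chr1:128359706-128359955, minus strand: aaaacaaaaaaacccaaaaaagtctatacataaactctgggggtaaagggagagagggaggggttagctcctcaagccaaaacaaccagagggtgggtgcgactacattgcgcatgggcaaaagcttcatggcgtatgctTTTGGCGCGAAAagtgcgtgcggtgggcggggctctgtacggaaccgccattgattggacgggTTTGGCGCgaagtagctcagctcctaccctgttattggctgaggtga
Cdc6, chr11:98907901-98908150, plus strand: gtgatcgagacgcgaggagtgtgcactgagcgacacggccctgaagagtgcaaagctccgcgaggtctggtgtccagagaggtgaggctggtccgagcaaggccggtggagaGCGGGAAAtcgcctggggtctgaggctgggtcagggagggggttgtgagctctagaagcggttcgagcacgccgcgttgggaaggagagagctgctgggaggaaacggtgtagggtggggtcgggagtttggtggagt
Mcm5, chr8:75109331-75109388, plus strand: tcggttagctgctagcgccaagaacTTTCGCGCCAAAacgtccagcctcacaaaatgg
Mcm7, chr5:138172016-138172073, minus strand: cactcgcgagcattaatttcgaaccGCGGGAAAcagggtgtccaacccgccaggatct
Mcm3, chr1:20820267-20820293, minus strand: GCGGGAAAacttgggaagtTTTGGCGC

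In the capitals of Mcm6 and Mcm5 a match on 1 strand overlaps one on the other, and Mcm6 holds a further match nearer the start. The pair in Mcm3 lies after the start, as does the single match in Cdt1, whose first base is base 33 counted from the start base as 1. Mcm7 holds a further match after the start, not shown. The single match in Cdc6 begins 138 bases before the start. The windows of Mcm2 and Mcm10, both lower after differentiation, and the second window of Mcm7 held none of these letters. The 5 letters CCAAT, the box bound by NF-Y, were present on either strand in 7 of the 9 windows (77.8%), in all but those of Cdt1 and Cdc6, and in 37.4% of all windows. A match describes the sequence and shows no binding in these cells.

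Mcm7 also carries 3 microRNA genes. On GRCm38.p6 the hairpins of Mir106b, Mir93 and Mir25 lie in intron 13 of Mcm7, between bases 138165321 and 138165818 of chromosome 5, on the same strand. The 5-prime arms of miR-106b and miR-93 share a seed (bases 2 to 8, in capitals), and the 3-prime arm of miR-25 has another. Poly(A) selection does not capture mature microRNAs, so no level is given for them. The sequences are from RefSeq.
mmu-miR-106b-5p: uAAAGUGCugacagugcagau
mmu-miR-93-5p: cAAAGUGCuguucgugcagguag
mmu-miR-25-3p: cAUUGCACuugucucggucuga

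The transcript table shows how far each value rests on the assignment of reads to overlapping models, since the gene value equals the sum over its transcripts. Mcm2, Mcm3 and Cdt1 have 1 model each. Of the 7 genes with more, none had a transcript whose share in the gene's sum differed by 30 percentage points between the library means. Between the 2 lanes of 1 library, however, a share differed by that much in Mcm4 and Mcm7 (undifferentiated) and in Mcm4 and Cdc6 (differentiated).

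In Mcm4 the RefSeq model NM_008565 held 80.7% and 48.4% of the sum before and 83.4% and 46.7% after differentiation. The rest went to ENSMUST00000168125, whose start lies inside the gene. The sums were steady all the same, at 109 and 114 and at 57.0 and 59.4 RPKM, and lane 1 and lane 2 gave the same log2 ratio of the gene within 0.01 (-0.93 and -0.92). In Mcm7 the RefSeq model NM_008568 held 95.5% of the sum in lane 1 of the undifferentiated library, 59.4% in lane 2, and 93.2% and 91.5% in the differentiated lanes. In that lane 2 the models OTTMUST00000054332, OTTMUST00000054329 and OTTMUST00000054330 stood at 22.1, 19.0 and 17.5 RPKM, and each was listed at 0 in the other 3 lanes. The differences of these 3 models between the libraries thus rest on a single lane. Over the library means NM_008568 alone gave a log2 ratio of -1.37, beside -1.61 for the gene. On the highest model of each gene, Mcm7 was not the lowest member, as Mcm5 stood at -1.39.

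In Cdc6 the model NM_001025779 and a shorter model, OTTMUST00000014748 (98771915 to 98775326), shared most of the sum. NM_001025779 held 41.5% and 43.4% of the sum before differentiation and 37.7% and 92.3% after it, the last at 19.3 RPKM. OTTMUST00000014748 stood at 12.4, 11.2 and 14.3 RPKM in the first 3 of these and was listed at 0 in lane 2 of the differentiated library. Over the library means NM_001025779 alone gave a log2 ratio of 0.55, beside 0.02 for the gene. Mcm10, with 10 models, was steadier: OTTMUST00000025433 held between 49.5% and 53.2% and NM_027290 between 22.1% and 27.2% in the 4 lanes. OTTMUST00000025433 is a shorter model (4911770 to 4916940) than NM_027290 (4911770 to 4933837), so much of the Mcm10 level rests on part of the gene. Both Gmnn models were lower, with log2 ratios of -0.68 and -0.57.

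**Figure D4:**
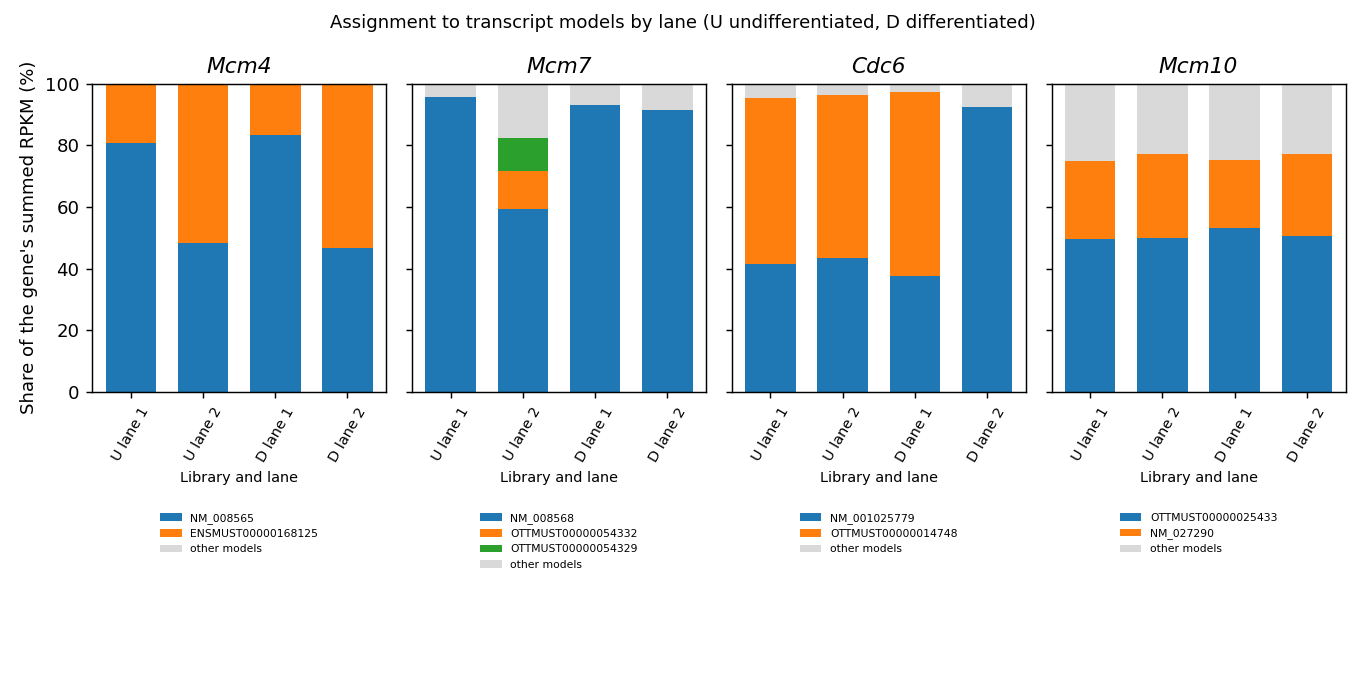
Share of each transcript model in the summed RPKM of Mcm4, Mcm7, Cdc6 and Mcm10, in percent, by library and lane; models that never reach 10% are grey. Mcm4 changes between lane 1 and lane 2 of both libraries, Mcm7 differs in lane 2 of the undifferentiated library and Cdc6 in lane 2 of the differentiated library, while Mcm10 is alike in all 4 lanes.

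Several of these genes share their start region or their sequence with another annotated gene, and the library kit kept no record of strand. Mcm7 overlaps Ap4m1, an adaptor complex gene that starts 376 bases inside it on the other strand and stood at 11.4 and 7.41 RPKM (log2 ratio -0.56), and it overlaps the last 64 bases of Cops6, a COP9 signalosome gene at 72.9 and 93.0 RPKM (0.35). In both neighbours the value rests on 1 undifferentiated lane: Ap4m1 stood at 14.6 and 8.19 RPKM before and at 6.98 and 7.83 after differentiation. Cops6 stood at 90.8 and 55.1 before and at 90.0 and 95.9 after, and its lanes overlapped. Prkdc, which encodes the catalytic subunit of a DNA repair kinase, starts 465 bases from Mcm4 on the other strand and stood at 1.66 and 2.27 RPKM (0.30), so the genes of that shared start region differed both in level and in the direction of the ratio. The model Gm2973 overlaps the first 511 bases of Gmnn on the other strand at 1.19 and 0.248 RPKM, and AK205147 lies inside Mcm3 at 1.16 and 3.24 RPKM. Cdt1 shares 5073 bases with a second row, MMCDT1, on the same strand, at 11.6 and 3.31 RPKM (-1.54). Adding that row to Cdt1, an alternative chosen after its values were seen, gave a log2 ratio of -1.40 beside -1.36.

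Other genes of replication, of E2F control and of mitosis were read in the same way. Over 10 further lists with 122 genes at the floor, the class of 2-fold lower held 17 (13.9%) and that of 2-fold higher held Cul4a, E2f6 and Pold4, with a median log2 ratio of -0.44 over the 122. In 99 of the 122 the ratio was below 0, as it was in 44.3% of all genes at the floor. The counts of lower genes in the single lists stand beside the 8.48% of all genes that were lower, and a list with 1 lower gene among many lies near that share. Of the origin recognition complex, which marks origins, 1 of 7 genes was lower, Orc2 (28.5 and 7.16 RPKM, -1.85), a larger difference than that of any of the 10 members. Orc1 (-0.64), Orc3 (-0.65), Orc5 (-0.92) and the associated gene Lrwd1 (-0.23) lay between, as did Orc6 at 48.5 and 48.8 RPKM (0.01) and Orc4 at 15.3 and 21.4 RPKM (0.46).

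Relatives of the members outside the licensing step differed little. Mcm8 and Mcm9, which form a helicase of recombination, stood at 7.63 and 6.40 RPKM (-0.22) and at 2.51 and 2.07 (-0.20). Mcmbp, which binds Mcm proteins, stood at 14.6 and 13.2 RPKM (-0.14), and Mcmdc2, a meiotic relative, at 1.89 and 1.73 (-0.08). The geminin relatives Mcidas and Gmnc, known from multiciliated cells, stayed below 0.1 RPKM in both libraries.

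The genes that activate the loaded helicase had 1 of 11 members at least 2-fold lower. It was Dbf4, the activating subunit of the Cdc7 kinase that phosphorylates the Mcm ring, at 84.2 and 39.5 RPKM (-1.07). Cdc45, which joins the ring in the active helicase, stood at 31.5 and 15.3 RPKM (-0.99), but its ratio ran from -2.09 to -0.30 over the lane pairings, and the GINS gene Gins4 stood at 39.6 and 21.5 (-0.86). Of 16 genes that control licensing factors, 1 was lower, the cyclin gene Ccne1 (73.9 and 33.6 RPKM, -1.11), and 1 was higher, Cul4a, a scaffold of the ligase that marks Cdt1 for destruction (98.3 and 312 RPKM, 1.66). The Cul4a lanes of the undifferentiated library stood apart, at 174 and 22.8 RPKM, and the ratio ran from 0.83 to 3.73 over the lane pairings. Dtl, the receptor of that ligase for Cdt1, stood at 34.5 and 17.7 RPKM (-0.92).

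Among the other lists the longest, that of polymerases, the clamp and ligation, held the most lower genes. Of 26 genes for polymerases, the clamp and ligation 8 were lower and 1, Pold4, named after its value was seen, was higher (2.49 and 6.36 RPKM), with a list median of -0.50. Rfc5, a subunit of the clamp loader, stood at 92.3 and 27.9 RPKM (-1.69), Rpa2, a subunit of the single-strand binding protein, at 70.2 and 23.5 (-1.54), and Pole4, of polymerase epsilon, at 67.1 and 26.8 (-1.29). Of 8 nucleotide supply genes 2 were lower, the serine hydroxymethyltransferase gene Shmt1 (-1.67) and the nucleotide pyrophosphatase gene Dctpp1 (-1.58). Tipin was the 1 lower gene of 9 in fork protection (110 and 51.5 RPKM, -1.08), where Chek1 stood at -0.78 and Hus1 at -0.73. In chromatin assembly the 1 lower gene of 8 was the histone chaperone gene Nasp (216 and 107 RPKM), followed by Slbp and Uhrf1 (both -0.68).

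The E2F and pocket protein genes went both ways. Of 13 genes 1 was lower, E2f4 (95.7 and 46.3 RPKM, -1.03), and 1 was higher, the repressor gene E2f6 (9.48 and 24.4 RPKM, 1.28), while the retinoblastoma gene Rb1 stood at 2.77 and 6.13 RPKM (0.92). The list median of 0.07 was below 0 under 3 of the 4 scalings. Of 20 mitosis genes 1 was lower, the checkpoint kinase gene Bub1b (70.4 and 34.1 RPKM, -1.03), the cyclin genes Ccnb1 (-0.92) and Ccnb2 (-0.79) lay between, and the list median was -0.45. The medians of the licensing genes and of these lists are descriptions of 2 libraries, and the difference between them was not tested.

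**Figure D5:**
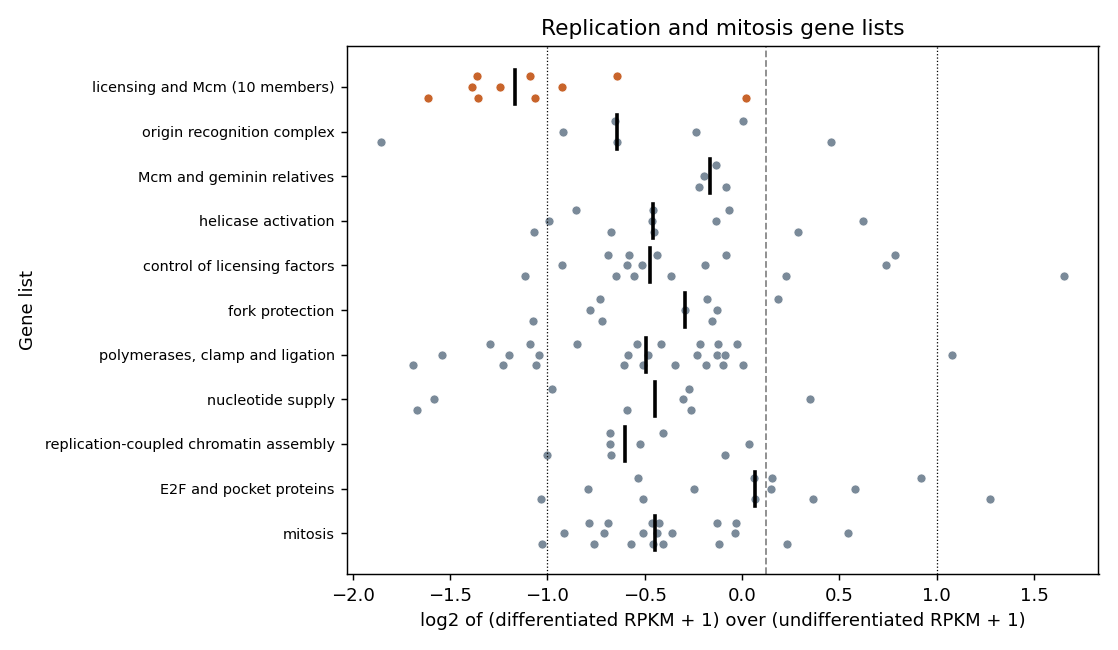
Log2 ratio of each gene at the floor in the 10 licensing and Mcm genes (orange) and in 10 other lists (grey); black bars are list medians, dotted lines mark 2-fold and the dashed line is the median of all genes, 0.12. The licensing list has a median of -1.17 and the others lie between -0.64 and 0.07.

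The levels of cell type markers also differed between the libraries. The sums given here are RNA levels and do not measure the share of any cell type. The summed level of the 8 ES cell markers was 3904 RPKM before and 335.5 after differentiation, and that of the 8 extraembryonic endoderm markers was 24.3 and 1267. The 8 fibroblast markers summed to 30.7 and 274.2 RPKM, with 2 below 1 RPKM before and 1 after. Of these, 5 were at least 2-fold higher, among them Col1a1 (12.3 and 133 RPKM), while Thy1 (3.43 and 2.13 RPKM), Postn (2.69 and 1.63 RPKM) and Lum (below 0.1 RPKM in both) were not; the last 3 were named after their values were seen. The 6 neural progenitor markers summed to 11.0 and 40.5 RPKM, with 4 below 1 RPKM before and 3 after, and 1 of the 6 was at least 2-fold higher. That gene was Nes (3.15 and 31.7 RPKM), named after its value was seen, and it made most of the difference in the sum. The part of these shifts in the lower level of the licensing genes was not tested.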

How the data were processed

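Gene, promoter and transcript tables were used as deposited. The authors deposited values for 2 lanes and their mean per library, which were read as RPKM although the tables name no unit: value times length in 2647 single-exon genes fell within 5% of a whole multiple of a constant for 90.4% to 92.2% of the low values. The genome build is mm9, per the submitters' processing notes; aligner, counter and annotation were not given in the sources used here. Of 58421 transcript models 39360 had an end minus start equal to the span in GENCODE M21, so starts were counted from 0, and 1 was added. For the members, gene values equalled transcript sums.

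Log2 ratios used a pseudocount of 1 RPKM, which understates differences of weak genes, a floor of 1 RPKM in either library and a 2-fold limit. Of rows with the same symbol the highest was used. No test was possible with 1 library per group. The members and lists were chosen with earlier results of these data known. Named were all members, the 3 genes with the largest absolute ratio per list, all genes of lists of up to 7 (1 named gene is not reported here), overlapping genes and genes starting within 1000 bases on the other strand. Synonyms of the RefSeq table (GRCm38.p6) placed 9 of the 122 list genes at the floor, and Ticrr, which matched no single row, was not analysed here. Alternatives were other pseudocounts, floors, folds, scalings, single lanes and the highest transcript row, and, added later, Cdt1 with MMCDT1. Scripts ran in Python 3.11.15 with pandas 2.3.3 and numpy 2.4.6, and were tested on simulated data.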

Additional observations from a re-analysis of the deposited data

How the results depend on the processing

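No paired analysis was possible because each group holds 1 library. The number of members past 2-fold was 7 and took values from 5 (equal column sums) to 9 (a 1.5-fold limit), and 7 with either lane, either pseudocount, either floor and the highest transcript row. With equal column sums the median of the members was -0.93 and that of the Mcm and geminin relatives turned to 0.036. The E2F median turned to -0.058 with median centring, -0.024 with the trimmed mean and -0.0023 with the upper quartile. The highest over lowest level among Mcm2 to Mcm7 was 1.78 before differentiation in lane 1, and with the highest transcript row 2.50 before and 2.78 after, since that setting keeps only part of the sums of Mcm4 and Mcm5. In lane 2 alone 1 member (Cdc6) differed by 30 percentage points in a promoter share and 2 (Mcm7 and Cdc6) in a transcript share, beside none over the means. The other alternatives kept each list median on its side of 0 and of 2-fold. Genes below 0.1 RPKM, such as Mcidas and Gmnc, have a value of 0 in at least 1 lane, and no difference is read from them. Without replicate cultures the variation between cultures is unknown.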

Other observations

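Some gene rows that overlap the members have extents far beyond a gene. The row GM6497, which covers Mcm6, spans 87723474 bases, RNU2, which covers Cdc6, spans 18434739 bases, and GALNT2, which covers Cdt1, spans 4434884 bases. Their levels were 69.3 and 54.4 RPKM, 12.3 and 9.87 RPKM, and 3.92 and 26.2 RPKM in the undifferentiated and differentiated libraries. The 2 differentiated lanes of GALNT2 stood at 38.1 and 14.3 RPKM.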
